A study of Homo sapiens with 4 samples.

Results

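RAB proteins are the largest branch of the RAS superfamily of small GTPases, and their genes were followed here in OMM 2.3 cells, a human uveal melanoma line, with and without meclofenamic acid. Members were taken by name, as every gene symbol made of RAB, a number and an optional letter, and 2 further family genes were left out by that rule. This gave 55 RAB genes among the 14416 genes of the deposited table. The wild-type line (genotype wt in the labels) was exposed for 24 h to meclofenamic acid (MA), a nonsteroidal anti-inflammatory drug that also inhibits the m6A demethylase FTO, or for 24 h to DMSO as the control (NC). Each condition had 1 input library, which gives transcript levels, and 1 library of RNA fragments bound by an antibody against N6-methyladenosine (m6A), which gives a list of m6A peaks. With 1 library per group and no replicate, no test was possible, no p-value is given, and every difference describes these 4 libraries of a single cell line.

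A RAB protein works as a switch on the membrane of one organelle. Exchange factors load it with GTP, so that it recruits effectors such as tethers, motors and sorting complexes, and GTPase activating proteins turn it off. A geranylgeranyl lipid tail, added with the help of an escort protein, anchors it in the membrane, and GDI proteins carry the inactive form back through the cytosol. In pigment cells, RAB proteins deliver pigment enzymes to melanosomes and move mature melanosomes along the cytoskeleton. m6A is the commonest internal mark of mRNA and is usually densest near the stop codon and in the 3' UTR.

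The library totals behind the scaling of the inputs, recovered from the deposited FPKM values (fragments or reads per kilobase, scaled to library size), were 41630895 in MA and 37041597 in NC. Of 11 melanocyte and melanoma lineage markers, 9 reached 1 FPKM in at least 1 input, and their summed level was 3453 FPKM in MA and 7869 FPKM in NC. Among the markers of other cell types found in the table, 1 of 4 fibroblast genes reached 1 FPKM, against 0 of 1 immune gene, 0 of 1 endothelial gene and 0 of 4 epithelial genes. That gene was LUM, and the summed level of the 4 fibroblast genes was 12.3 FPKM in MA and 5.18 FPKM in NC. The lineage and fibroblast markers thus differed between the treatments as well, in opposite directions, and their part in the RAB differences was not tested. These are bulk RNA libraries, in which fewer cells of a kind and less RNA per cell cannot be told apart.

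The RAB family as a whole did not lie to one side: a few members were more abundant with MA, a few less, and most lay within 2-fold. At least 1 input had 1 FPKM or more for 44 of the 55 genes. Of the 44, RAB8B, RAB30, RAB33B and RAB39A were under 1 FPKM in NC. These genes passed the filter only through MA, so their differences were above 0 by construction. On the scale of log2((MA FPKM + 1)/(NC FPKM + 1)), which understates the difference of low genes, 4 of these 44 were higher in MA by 2-fold or more (9.09%) and 2 were lower (4.55%). The background over all 10564 genes tested in this way was 10.3% higher and 2.98% lower, so the share of members past 2-fold was near that of all genes. The difference was above 0 in 25 of the 44 genes (56.8%), against 56.7% of all genes tested. Its median was 0.07 for the RAB genes and 0.11 for all genes, and the central 80% of the members ran over −0.66 to 0.95, against −0.60 to 1.01 for all genes. The exact 95% interval of the log2 ratio, which covers counting error only, lay above 0 in 22 of the 44 genes and below 0 in 16, against 50.2% and 36.7% of all genes tested. That 86.9% of all genes had an interval without 0 leaves nothing particular to the family in this count.

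The number of genes counted as higher depended on the scale. It was 9 as TPM, 7 with a pseudocount of 0.1 FPKM, 2 once all differences were shifted so that the median of all genes was 0, and 1 with a pseudocount of 5 FPKM. The number counted as lower stayed at 2 or 3 in these settings. These counts were not set beside those of all genes at the same settings, so they show nothing particular to the family. The median of the RAB genes was 0.14 as TPM and −0.046 with the median of all genes at 0, so its sign depended on the scale too. Summed over the family, the RAB genes held 1290 FPKM in MA and 1461 FPKM in NC, which was 0.338% of the summed FPKM of all genes in MA and 0.363% in NC.

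**Figure D1:**
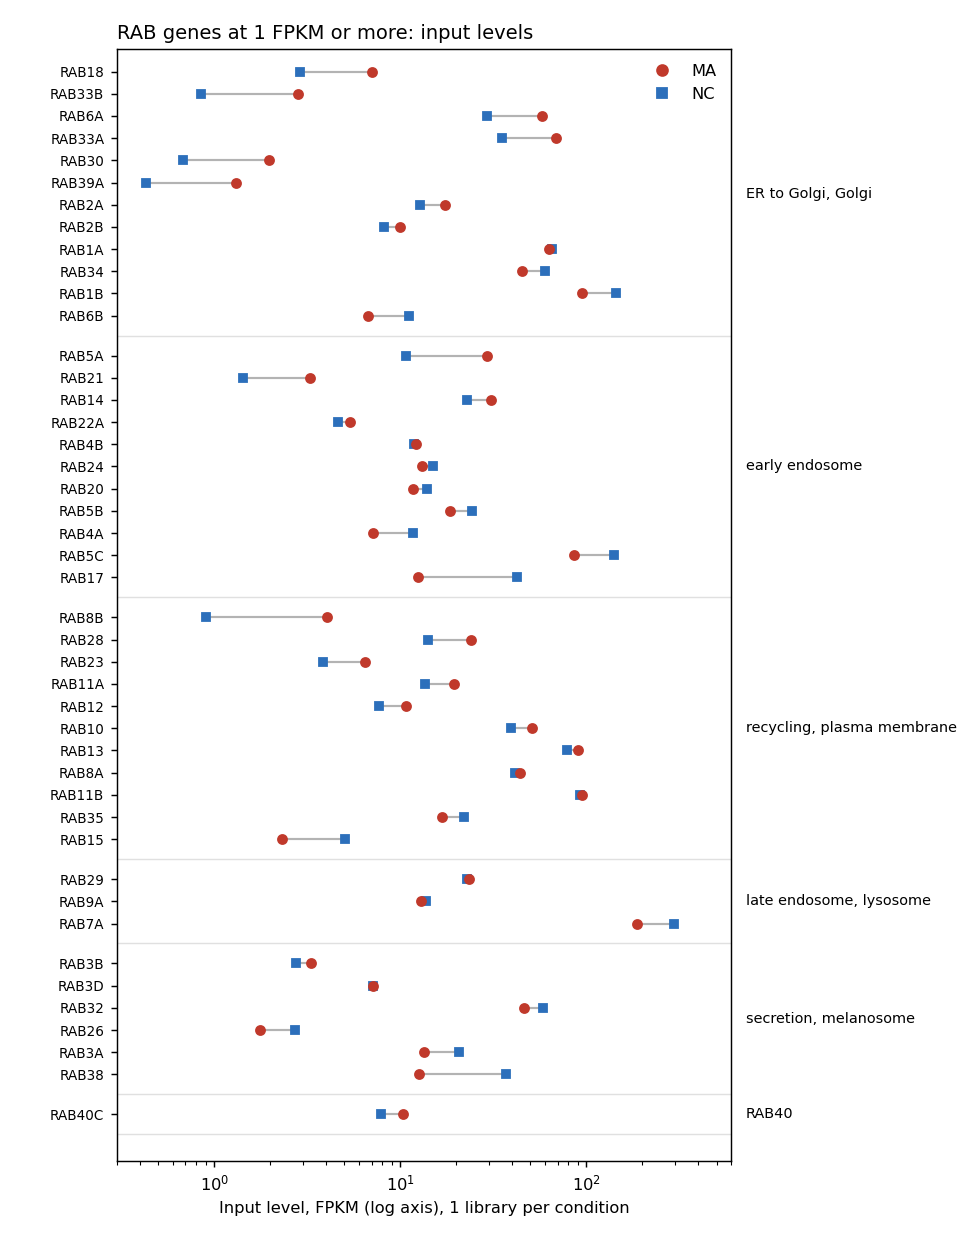
Input level in FPKM (log axis) of the 44 tested RAB genes (1 FPKM or more in either input), grouped by the compartment in which each acts, with MA as red circles and NC as blue squares, 1 library per condition. The MA symbol lies furthest to the right of the NC symbol for RAB8B and RAB33B and furthest to the left for RAB17 and RAB38, while genes such as RAB3D, RAB29 and RAB11B have both symbols on top of each other.

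RAB8B, which with RAB8A carries cargo to the plasma membrane, was at 4.03 FPKM in MA and 0.905 FPKM in NC. These values rest on 715 recovered reads in MA and 143 in NC, and the log2 ratio without a pseudocount was 2.15 (exact 95% binomial interval 1.89 to 2.42). With the pseudocount its difference was 1.40, the highest of the family. All such intervals cover counting error only, since reads multiplied by PCR without molecular identifiers are not independent molecules and differences between cultures are not in them.

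RAB5A, which drives fusion of early endosomes, was at 29.1 FPKM in MA and 10.7 FPKM in NC, from 3046 reads in MA and 997 in NC. Its difference was 1.36, with a log2 ratio of 1.44 (1.34 to 1.55). It was the most abundant of the 4 genes counted as higher, in both inputs.

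RAB18, which acts at the endoplasmic reticulum and on lipid droplets, was at 7.02 FPKM in MA and 2.89 FPKM in NC, a difference of 1.04 and a log2 ratio of 1.28 (1.14 to 1.43). RAB33B, a Golgi RAB that binds ATG16L1 in autophagosome formation, was at 2.80 FPKM in MA and 0.848 FPKM in NC, from 275 reads in MA and 74 in NC, a difference of 1.04 and a log2 ratio of 1.73 (1.35 to 2.12). Both lie just past 2-fold, and neither was counted as higher once the median of all genes was set to 0.

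RAB17, known from endocytic and transcytotic traffic in polarised epithelia, was at 12.5 FPKM in MA and 42.6 FPKM in NC, from 855 reads in MA and 2600 in NC. Its difference of −1.70 was the lowest of the family, with a log2 ratio of −1.77 (−1.89 to −1.66). RAB38, which with RAB32 delivers tyrosinase and related enzymes to melanosomes, was at 12.7 FPKM in MA and 36.8 FPKM in NC, from 2197 reads in MA and 5680 in NC. Its difference was −1.47 and its log2 ratio −1.54 (−1.61 to −1.47). Both genes remained past 2-fold under each pseudocount, filter and scaling tried.

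**Figure D2:**
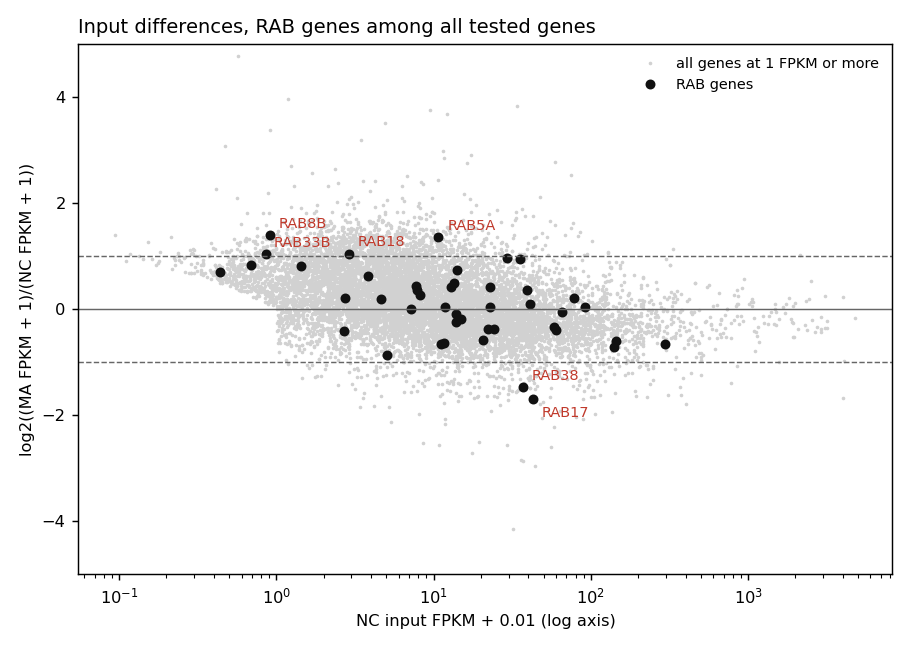
Log2 difference of the input level, MA over NC with 1 FPKM added (y axis), against the NC input level (x axis, FPKM + 0.01, log axis), with RAB genes as black points over all 10564 genes tested in grey. The dashed lines mark 2-fold, past which 4 RAB genes lie above and 2 below, and the RAB points spread like the grey cloud, with lower differences at higher NC levels. Genes under 1 FPKM in NC are drawn only where MA reached 1 FPKM, so these points lie above 0 by construction.

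Promoter sequence was looked at for the genes that differed most and for the RAB genes that hold an E-box, the short motif bound by basic helix-loop-helix leucine zipper factors. The letters searched were CACGTG, which reads the same on both strands, and CATGTG with its complement CACATG, both chosen after the input differences were known. The RefSeq promoter table (GRCh38.p14, 250 bases before to 50 bases after each gene's start) held 44 of the 55 RAB genes, and among the 6 genes past 2-fold RAB33B and RAB38 were not matched. The lines below give 30 bases of the gene's own strand around the motif, which is in capitals, for RAB17 and RAB5A as the genes past 2-fold that hold one, and for RAB21, RAB24 and RAB4A to show that the same letters stand before genes with a higher, a nearly equal and a lower level.
RAB17: gcctcaggtgacCACATGaccactgtggac
RAB5A: cactcgcagggtCACGTGacatcctgcctc
RAB21: ggcaccggcgctCACGTGacccgaggtgtg
RAB24: cggcgcccgcgcCACGTGaccttgcggccc
RAB4A: gcccagcccgcgCACGTGcttccggcgcgc

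The RAB17 stretch is chr2:237590738-237590767 on the minus strand, with the motif beginning 21 bases before the start given in the promoter table. The RAB17 start codon peaks cover this stretch, at 237590723 to 237591071 in MA and 237590723 to 237591121 in NC. It thus lies in sequence annotated as transcribed in the peak lists, and the start used in these cells was not determined. The RAB5A stretch is chr3:19946964-19946993 on the plus strand, 121 bases before the start. RAB21 (chr12:71754831-71754860, plus strand, 20 bases before), RAB24 (chr5:177303732-177303761, minus strand, 30 bases before) and RAB4A (chr1:229270997-229271026, plus strand, 102 bases before) complete the set. Of 35 matched RAB genes at 1 FPKM or more, 5 held CACGTG (14.3%), against 7.20% of 34796 promoters in the table. CATGTG was held by 2 (5.71%), against 11.1% of all promoters. The promoters of the table were not filtered by input level, so the RAB shares and the table's shares come from unlike sets and their gaps are not read. The differences of the 5 genes with CACGTG ran over −0.65 for RAB4A, −0.18 for RAB24, 0.04 for RAB29, 0.81 for RAB21 and 1.36 for RAB5A, so the motif was found on genes of either direction. RAB3A, the other gene at 1 FPKM or more with CATGTG, had a difference of −0.59. RAB9B, under 1 FPKM in both inputs, also held this motif and had a difference of 0.13. A match is a description of these letters in this window and not a binding site.

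Among the RABs of the endoplasmic reticulum and Golgi, 16 genes were in the table and 12 were tested. Of these, 2 were higher (RAB18 and RAB33B) and 0 lower, beside 10.3% and 2.98% of all genes tested. The median difference was 0.55. That median was 0.26 with a filter of 5 FPKM or a pseudocount of 5 FPKM and 0.33 with no filter. The group was split, with 8 genes above 0. Among them, RAB30, RAB33B and RAB39A passed the filter only through MA and so lay above 0 by construction. The counts of the groups below stand beside the same background shares. RAB6A, which runs retrograde transport through the Golgi, was at 57.7 FPKM in MA and 29.2 FPKM in NC (difference 0.96), just under 2-fold. RAB33A, a close relative of RAB33B in Golgi-derived vesicles, was at 68.8 FPKM in MA and 35.3 FPKM in NC (0.94). RAB30, also on the Golgi, was at 1.97 FPKM in MA and 0.677 FPKM in NC (0.83). RAB39A, at 1.31 FPKM in MA and 0.430 FPKM in NC, rested on 103 reads in MA and 30 in NC (0.69).

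RAB2A and RAB2B, which act between the Golgi and the endoplasmic reticulum, were nearer to equal. RAB2A was at 17.4 FPKM in MA and 12.8 FPKM in NC (0.41), and RAB2B at 9.97 FPKM in MA and 8.15 FPKM in NC (0.26). RAB1A and RAB1B govern transport out of the endoplasmic reticulum. RAB1A was at 62.9 FPKM in MA and 65.1 FPKM in NC (−0.05), with an interval of the log2 ratio that holds 0, whereas RAB1B was at 94.3 FPKM in MA and 144 FPKM in NC (−0.60). RAB34, which positions lysosomes and takes part in cilium formation, was at 45.2 FPKM in MA and 59.7 FPKM in NC (−0.39). RAB6B, the form known from neurons, was at 6.68 FPKM in MA and 11.1 FPKM in NC (−0.65), the lowest of the group.

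All 11 early endosome RABs were tested, with 1 higher (RAB5A), 1 lower (RAB17) and a median of −0.18, which was −0.30 with the median of all genes at 0 and −0.12 as TPM. RAB21, which guides integrin endocytosis, was at 3.25 FPKM in MA and 1.43 FPKM in NC (0.81). RAB14, between Golgi and endosomes, was at 30.8 FPKM in MA and 22.9 FPKM in NC (0.41), and RAB22A at 5.36 FPKM in MA and 4.61 FPKM in NC (0.18). The other members of the RAB5 trio lay on the opposite side to RAB5A. RAB5C was at 85.2 FPKM in MA and 141 FPKM in NC (−0.72), and RAB5B at 18.4 FPKM in MA and 24.3 FPKM in NC (−0.38). RAB4A, of the fast recycling route, was at 7.11 FPKM in MA and 11.7 FPKM in NC (−0.65), while its relative RAB4B was nearly equal at 12.2 FPKM in MA and 11.8 FPKM in NC (0.04). RAB20 (11.6 FPKM in MA, 13.9 in NC, −0.24) and RAB24 (13.1 FPKM in MA, 15.0 in NC, −0.18), which has been tied to autophagy, were slightly below 0.

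In the recycling and plasma membrane group, 1 of 11 tested genes was higher (RAB8B) and 0 were lower, with a median of 0.36. Above 0 were 9 of the 11 genes, beside 56.7% of all genes tested, and RAB8B among the 9 passed the filter only through MA. With the median of all genes at 0, where all genes split evenly by construction, 7 of the 11 were above 0. RAB28, a ciliary RAB needed by photoreceptors, was at 23.9 FPKM in MA and 14.0 FPKM in NC (0.73). RAB23, a brake on hedgehog signalling, was at 6.42 FPKM in MA and 3.82 FPKM in NC (0.62), and RAB11A, the defining RAB of the recycling endosome, at 19.5 FPKM in MA and 13.6 FPKM in NC (0.49). These 3 intervals of the log2 ratio excluded 0, as did those of 86.9% of all genes tested.

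RAB12 (10.8 FPKM in MA, 7.70 in NC, 0.44) and RAB10, which moves glucose transporter vesicles in fat cells (51.0 FPKM in MA, 39.5 in NC, 0.36), followed. RAB13, known from tight junctions, was at 90.4 FPKM in MA and 78.3 FPKM in NC (0.20). RAB8A (44.0 FPKM in MA, 41.3 in NC, 0.09) and RAB11B (95.1 FPKM in MA, 92.4 in NC, 0.04) were nearly equal. The remaining genes were below 0: RAB35, of fast recycling and cytokinesis, was at 16.7 FPKM in MA and 22.0 FPKM in NC (−0.38), and RAB15 at 2.32 FPKM in MA and 5.07 FPKM in NC (−0.87), from 348 reads in MA and 677 in NC.

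RAB7A, which sends late endosomes to lysosomes, was the most abundant member in both inputs, at 187 FPKM in MA and 296 FPKM in NC. Its difference was −0.66, and its log2 ratio of −0.66 had a narrow counting interval (−0.69 to −0.64). The other tested genes of the late endosome and lysosome group were close to equal, RAB9A at 12.9 FPKM in MA and 13.8 FPKM in NC (−0.09) and RAB29, a partner of the kinase LRRK2, at 23.4 FPKM in MA and 22.7 FPKM in NC (0.04). None of the 3 passed 2-fold, and their median of −0.09 turned to 0.02 with the low genes of the group added.

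In the group of regulated secretion and melanosomes, 1 of 6 tested genes was lower (RAB38), 0 were higher, 1 was above 0 and the median was −0.38. The median was −0.10 with no filter on low values and −0.25 with a pseudocount of 5 FPKM. RAB32, the partner of RAB38 on melanosomes, was at 46.1 FPKM in MA and 58.2 FPKM in NC (−0.33, log2 ratio −0.34, −0.42 to −0.25). The 2 genes thus lay on the same side, with RAB38 further out. RAB3A, of synaptic and secretory vesicles, was at 13.4 FPKM in MA and 20.7 FPKM in NC (−0.59), and RAB26, of secretory granules, at 1.76 FPKM in MA and 2.70 FPKM in NC (−0.42). RAB3D was at 7.16 FPKM in MA and 7.17 FPKM in NC (−0.0015), and RAB3B at 3.32 FPKM in MA and 2.74 FPKM in NC (0.21). RAB40C, which carries a SOCS box for ubiquitin ligase assembly, was at 10.4 FPKM in MA and 7.88 FPKM in NC (0.35).

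The 11 genes under 1 FPKM in both inputs were RAB3C, RAB6C, RAB6D, RAB7B, RAB9B, RAB19, RAB27B, RAB37, RAB40B, RAB43 and RAB44. RAB9B (0.955 FPKM in MA, 0.787 in NC) and RAB40B (0.499 FPKM in MA, 0.947 in NC) came nearest to that level. RAB19 and RAB44 were listed at 0 in NC and RAB27B at 0 in MA. RAB6C and RAB6D are near copies of RAB6A, and reads of the 3 genes can be split among them by the counting, so their values are uncertain. By the RefSeq gene spans, 36 of the 55 RAB genes overlap another gene and 13 a protein-coding one, such as RAB1A with CEP68 and RAB6B with SRPRB. Whether counting used strand is not given in the sources used here, so reads from such neighbours cannot be told apart.

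Close relatives often lay apart, so that the make-up of several subfamilies differed between MA and NC. Within RAB5, whose 3 members act on the same early endosomes, the summed level was 133 FPKM in MA and 176 FPKM in NC. RAB5A made up 21.9% of that sum in MA and 6.06% in NC, RAB5C 64.2% in MA and 80.2% in NC, and RAB5B 13.9% in MA and 13.8% in NC. The gap between the highest and lowest difference was 2.09 log2 units for RAB5, and 2.17 without a pseudocount, the widest of the 9 subfamilies with at least 2 tested members on both scales. For RAB6 it was 1.61, and 1.71 without a pseudocount, with RAB6A at 89.1% of the subfamily in MA and 71.7% in NC and RAB6B at 10.3% in MA and 27.1% in NC.

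The RAB8 gap was 1.31, but RAB8B is a low gene, and without a pseudocount the gap was 2.06 and wider than that of RAB6. RAB8B was the minor form, at 8.38% in MA and 2.14% in NC. Gaps of 0.80 for RAB3, 0.69 for RAB4, 0.55 for RAB1 and 0.45 for RAB11 followed. In RAB4 the share of RAB4A was 36.9% in MA and 49.8% in NC. In RAB1 the share of RAB1A was 40.0% in MA and 31.2% in NC, and in RAB11 the share of RAB11A was 17.0% in MA and 12.8% in NC. The RAB2 gap was 0.15 on both scales. The RAB33 gap depended on the pseudocount, at 0.10 with 1 FPKM and 0.76 with none, since RAB33B is low in NC. A common shift of all genes leaves these gaps as they are. The signs of RAB4B, RAB8A, RAB11B and RAB29 turned below 0 when the median of all genes was set to 0, and those of RAB1A and RAB3D turned above 0 as TPM.

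**Figure D3:**
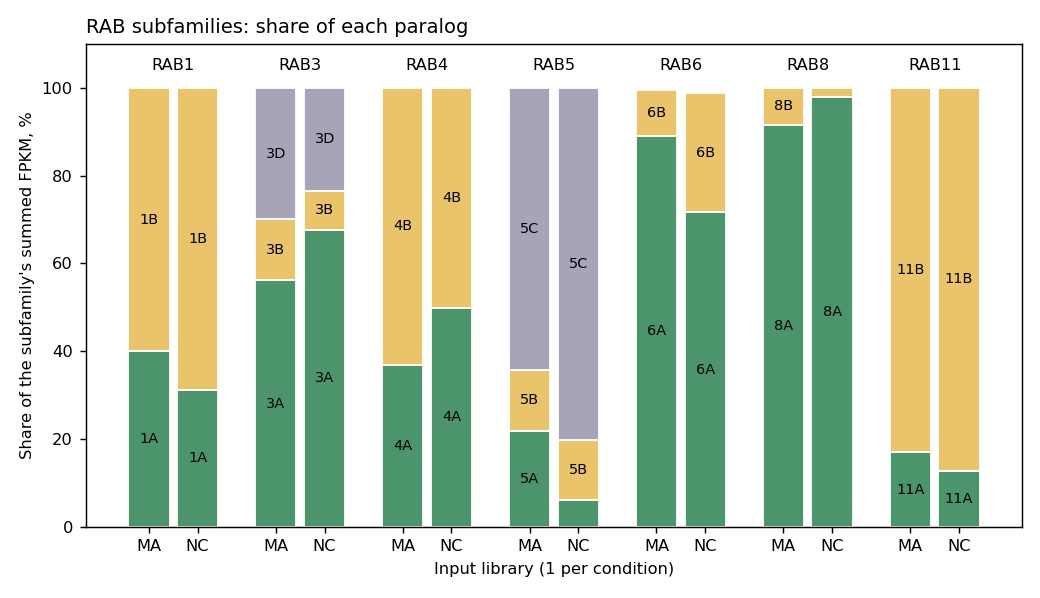
Share of each RAB subfamily's summed input FPKM held by each member (y axis, percent, stacked bars), with the MA bar left of the NC bar for each of 7 subfamilies, 1 library per condition. RAB5A and RAB6A fill more of their bars with MA (21.9% and 89.1%) than with NC (6.06% and 71.7%), and members under 1 FPKM in both inputs, such as RAB6C and RAB6D, are not drawn.

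The differences moved with the level and, less so, with the transcript length. Across the 44 RAB genes the Spearman correlation of the difference with the NC level was −0.49, against −0.45 over all 10564 genes. This is a description, since the points share both libraries and the NC level enters both axes. Genes under 1 FPKM in NC were tested only where MA reached 1 FPKM, so they lie above 0 by construction. The filter thus adds to this correlation, by an amount that was not tested. With the recovered length, the smallest that fits and so at times too short, the correlation was 0.16 for the RAB genes and 0.20 for all genes. Genes were also split by length into 3 classes of equal size over all tested genes, at 2443 and 4809 bp. The 21 RAB genes in the short class had a median of −0.05 (−0.04 for all genes in it), the 15 in the middle class 0.09 (0.11) and the 8 in the long class 0.56 (0.28). Of the 8 long RAB genes, 7 were above 0, beside 66.3% of all long genes. RAB18 is in the long class, RAB8B and RAB38 in the middle class and RAB17 in the short class, and genes past 2-fold were found in every class. The part of length and level in the RAB differences was not tested.

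The machinery that acts on RAB proteins was described through 6 gene lists, from which the 4 genes with the largest differences at 5 FPKM or more are named. Over all 6 lists 207 genes were in the table and 185 were tested, with 22 higher (11.9%), 7 lower (3.78%) and a median of 0.14. These were near the values of all genes tested, with 10.3% higher, 2.98% lower and a median of 0.11. The counts of each list stand beside the same background. With the median of all genes at 0, the medians of the 6 lists ran over −0.21 to 0.14. In the list of lipid attachment and GDI genes, 1 of 8 was higher and 1 lower. CHM, the escort protein REP1 that presents new RAB proteins for lipid attachment, was at 8.07 FPKM in MA and 2.67 FPKM in NC (1.30). The 2 subunits of the geranylgeranyl transferase itself lay on opposite sides, RABGGTA at 14.0 FPKM in MA and 31.4 FPKM in NC (−1.11) and RABGGTB at 70.6 FPKM in MA and 44.7 FPKM in NC (0.65). RABIF, a chaperone of nucleotide-free RAB proteins, was at 7.31 FPKM in MA and 10.8 FPKM in NC (−0.51).

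Of 47 exchange factor genes, 7 were higher and 3 lower, beside 10.3% and 2.98% of all genes tested, with a median of 0.13. RAB3GAP2, part of the complex that activates RAB18, was at 28.7 FPKM in MA and 9.61 FPKM in NC (1.48), on the same side as RAB18 itself. TRAPPC6B, a subunit of the TRAPP complexes that act on RAB1, was at 7.77 FPKM in MA and 2.12 FPKM in NC (1.49). The DENN domain genes SBF1 (7.07 FPKM in MA, 24.2 in NC, −1.65) and DENND2D (3.04 FPKM in MA, 11.3 in NC, −1.61) were the lowest. Of 33 GTPase activating proteins with a TBC domain, 2 were higher and 1 lower, with a median of 0.17. TBC1D16, which acts on RAB4A, was at 31.0 FPKM in MA and 101 FPKM in NC (−1.67), TBC1D31 at 7.86 FPKM in MA and 2.73 FPKM in NC (1.25), TBC1D23 at 10.7 FPKM in MA and 4.46 FPKM in NC (1.10) and TBC1D15, which acts on RAB7, at 11.1 FPKM in MA and 5.37 FPKM in NC (0.93).

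Of 60 effector genes, 10 were higher and 1 was lower, beside 10.3% and 2.98% of all genes tested, with a median of 0.14. The lower one was MLPH, melanophilin, which links melanosomes to the motor myosin Va, at 20.4 FPKM in MA and 88.9 FPKM in NC (−2.07). The largest on the other side were EHBP1, an effector of RAB8 and RAB10, at 9.86 FPKM in MA and 2.84 FPKM in NC (1.50), the golgin GCC2 at 6.56 FPKM in MA and 1.83 FPKM in NC (1.42), and KIF16B, a kinesin of early endosomes, at 11.3 FPKM in MA and 3.81 FPKM in NC (1.36). Over the 6 lists, MLPH had the lowest difference.

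Of 21 genes of the BLOC, AP-3 and HOPS sorting complexes, 2 were higher and 1 was lower, with a median of 0.0040. BLOC1S5 (15.1 FPKM in MA, 6.38 in NC, 1.13), BLOC1S6 (13.5 FPKM in MA, 6.21 in NC, 1.01) and BLOC1S2 (11.2 FPKM in MA, 5.71 in NC, 0.87) encode BLOC-1 subunits, and VPS18 (13.1 FPKM in MA, 29.3 in NC, −1.10) a HOPS core subunit. None of 19 related GTPases passed 2-fold in either direction. The largest differences among these were those of ARL1 (17.3 FPKM in MA, 9.73 in NC, 0.77), RABL6 (31.5 FPKM in MA, 54.3 in NC, −0.77), ARL2 (136 FPKM in MA, 215 in NC, −0.66) and IFT27 (5.34 FPKM in MA, 8.22 in NC, −0.54).

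RAB transcripts carried m6A peaks in both conditions, in fewer genes with MA than with NC. Of the 44 tested genes, 33 had a peak in the MA list (75.0%, exact Clopper-Pearson 95% interval 59.7% to 86.8%) and 40 in the NC list (90.9%, 78.3% to 97.5%). The background was 80.0% of all tested genes in the MA list and 83.3% in the NC list, and both of these values lie inside the family's own intervals. Over all 55 genes, 36 had a peak in both lists, 8 in the NC list only, 0 in the MA list only and 11 in neither. RAB40B is the single one of the 8 that was not tested. Of all tested genes, 7.29% had a peak in the NC list only and 4.04% in the MA list only. Each list comes from 1 pair of libraries, and a gene absent from a list had no peak past the authors' thresholds there, which does not show that the mark is absent.

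The 8 genes with a peak in the NC list only were RAB2A, RAB2B, RAB5C, RAB6B, RAB11A, RAB11B, RAB34 and RAB40B. Their 10 peaks were weak ones: the authors' fold enrichment of antibody over input, a value used only within its own list, was 1.53 to 3 with a median of 2.05, against a median of 3.57 for all NC peaks. RAB5C had 1 exon peak of 1.62-fold on chromosome 17 at 42125817 to 42128381 (GRCh38.p13, as are all peak positions), and RAB34 had 1 of 1.53-fold in the 3' UTR, on chromosome 17 at 28714530 to 28714679. RAB6B had 2 peaks, of 2.75-fold in the 3' UTR and 2.12-fold in an exon. RAB11A had a 5' UTR peak of 1.66-fold, RAB11B a 3' UTR peak of 1.74-fold and RAB2B a start codon peak of 2.67-fold. The other peaks of these genes were those of RAB40B, at 3-fold and 2-fold in the 3' UTR, and 1 of RAB2A. RAB1B, RAB4A, RAB4B and RAB39A had no peak in either list, at input levels of 0.430 to 144 FPKM.

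In number, the family held 55 peaks in the MA list of 19929 and 70 in the NC list of 22067. Of the genes with a peak, 4 had more in MA, 17 more in NC and 23 the same number. The NC list is the longer one, and these counts were not set beside those of all genes, so they show nothing particular to the family. RAB17 had 4 peaks in MA and 2 in NC, RAB12 had 3 in MA and 1 in NC, and RAB15 had 1 in MA and 4 in NC. Most regions of either list overlapped one of the other list by at least 1 bp, over whole spans with introns included. Of the 55 MA regions, 48 overlapped an NC region by at least 1 bp (87.3%, 75.5% to 94.7%), against 79.6% of all MA regions. Of the 70 NC regions, 50 overlapped an MA region (71.4%, 59.4% to 81.6%), against 73.8% of all. With an overlap of 50% of both regions these shares of the RAB genes were 52.7% in MA and 41.4% in NC. The shares thus depended on the overlap rule. Those at 50% were not set beside the shares of all regions, so they show nothing particular to the family.

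RAB peaks lay in the 3' UTR more often than the peaks of all genes, in either list. The 3' UTR share was 61.8% in MA (47.7% to 74.6%), against 42.8% of all MA peaks, and 65.7% in NC (53.4% to 76.7%), against 42.1% of all NC peaks. Peaks annotated to other exons made up 18.2% in MA (9.08% to 30.9%; 34.0% of all peaks) and 12.9% in NC (6.05% to 23.0%; 33.8% of all peaks). In these 4 comparisons the value of all peaks lay outside the interval, which treats peaks as independent although peaks of 1 gene share a transcript. Peaks over more than 1 exon are placed with less certainty, and they made up 13 of the 34 RAB 3' UTR peaks in MA and 11 of 46 in NC. Among peaks within 1 exon, the 3' UTR share was 80.8% for RAB genes in MA (60.6% to 93.4%), against 57.7% of all such MA peaks, and 77.8% in NC (62.9% to 88.8%), against 56.3% of all. At 3-fold enrichment or more it was 64.0% for RAB genes in MA (42.5% to 82.0%), against 45.5% of all, which lies inside the interval, and 82.4% in NC (65.5% to 93.2%), against 44.7%.

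The 5' UTR and start codon shares were near those of all peaks. The 5' UTR held 14.5% of the RAB peaks in MA (14.9% of all peaks) and 15.7% in NC (14.4% of all). Start codons held 3.64% in MA (4.79% of all) and 5.71% in NC (6.06% of all). Stop codons held 1 of 55 in MA (3.46% of all peaks) and 0 of 70 in NC (3.54% of all), both inside the RAB intervals.

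**Figure D4:**
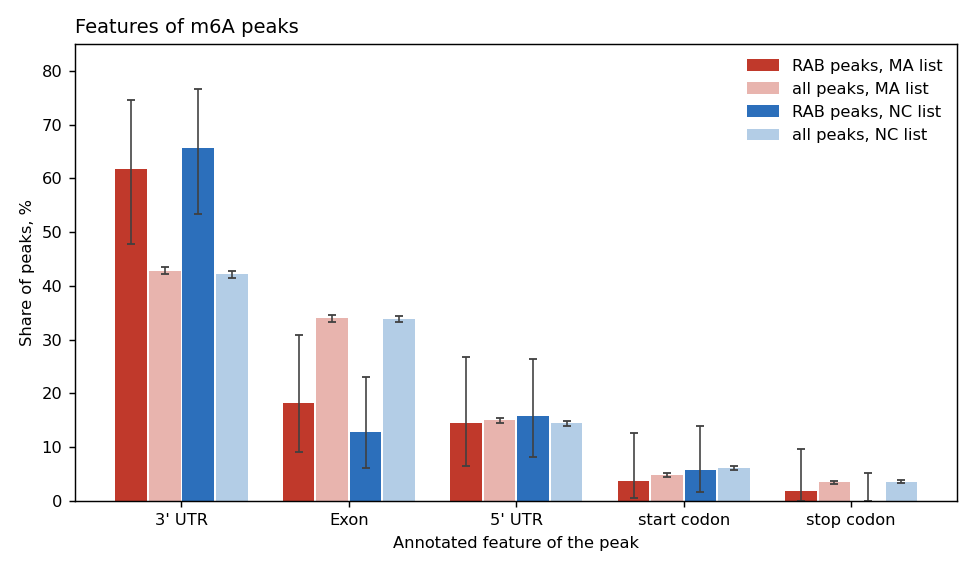
Share of m6A peaks in each annotated feature (y axis, percent of the peaks of that list) for RAB genes and for all genes, with MA left of NC and error bars giving exact 95% binomial intervals that cover counting error only. The 3' UTR holds 61.8% of RAB peaks in MA and 65.7% in NC, against 42.8% and 42.1% of all peaks, and other exons hold a smaller share of RAB peaks than of all peaks.

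The genes that differed most in level kept peaks in both lists. RAB5A had 3 peaks in each, with a total of 892 exonic bp in both: an exon peak at 19976053 to 19978490 and a 3' UTR peak at 19983793 to 19984089 on chromosome 3 had the same ends in the 2 lists, and a 5' UTR peak differed in its ends. RAB8B had 3 peaks in MA and 2 in NC, of which the 3' UTR peak, on chromosome 15 at 63255551 to 63263935 in MA, had 4.61-fold enrichment within the MA list, and the overlapping peak in NC 10-fold within the NC list. RAB18 had 2 peaks in each list and RAB33B 1 in each.

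RAB17 had a 3' UTR peak and a start codon peak in both lists, and 2 exon peaks in MA alone, at 1.94-fold and 3.67-fold. RAB38 had a 3' UTR peak and an exon peak in both lists. A further RAB38 peak, annotated as 3' UTR with 5-fold enrichment, was in the NC list only, on chromosome 11 at 87819087 to 87819335, 294 kb from the nearest other peak of the gene, and it was picked out after its values were seen. RAB6A had a shared 3' UTR peak of 2.97-fold in MA and 2.47-fold in NC, RAB7A a 5' UTR and a 3' UTR peak in both lists, and RAB32 1 shared 3' UTR peak.

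By the authors' enrichment within the MA list, the leading RAB peaks were in RAB9B (9-fold), RAB20 (6-fold), RAB21 (5.33-fold) and RAB30 (5.25-fold), followed by peaks of RAB15, RAB22A, RAB30 and RAB40C at 5-fold. Within the NC list they were in RAB33B (10.5-fold), RAB8B (10-fold), RAB23 (6.83-fold) and RAB30 (6.75-fold), followed by RAB20, RAB26 and RAB40C at 6-fold. RAB9B, RAB33B, RAB8B and RAB30 were each under 1 FPKM in NC, with 55 to 253 input reads there over the whole gene. The median was 2.95 for RAB peaks and 3.07 for all peaks in MA, and 2.89 for RAB peaks and 3.57 for all peaks in NC.

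The exonic length under peaks summed to 21776 bp in MA and 24217 bp in NC, with a median peak of 339 bp in MA and 296 bp in NC. Of the 33 tested genes with peaks in both lists, 18 had a longer sum in MA, 14 a shorter one and 1, RAB5A, an equal one. Over all tested genes with peaks in both lists, 45.9% had a longer sum in MA and 47.7% a shorter one, beside 54.5% and 42.4% of these RAB genes. Peaks that lay within 1 exon made up 47.3% of RAB peaks in MA (33.7% to 61.2%), against 55.9% of all peaks, and 64.3% in NC (51.9% to 75.4%), against 59.8%, both inside the intervals. All 8 RAB 5' UTR peaks in MA and 7 of 11 in NC spanned more than 1 exon. Over all genes, 1835 of 2978 5' UTR peaks in MA and 1773 of 3187 in NC did so.

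**Figure D5:**
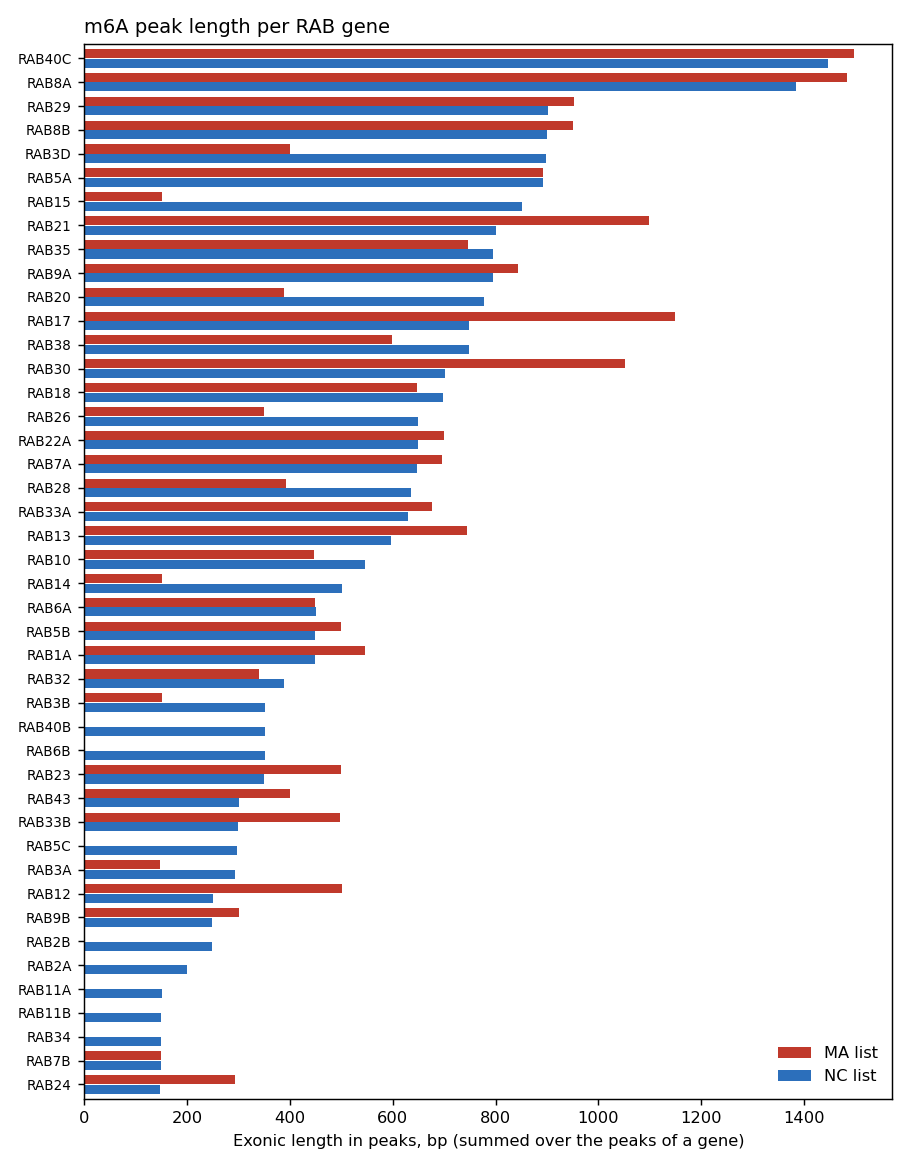
Summed exonic length of the m6A peaks (x axis, bp) of each of the 44 RAB genes with a peak in at least 1 list, with the MA bar above the NC bar. The 8 genes without an MA bar have peaks in the NC list only, no gene lacks an NC bar, and RAB5A has equal bars of 892 bp.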

How the data were processed

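RNA of OMM 2.3 cells was sequenced as 1 input and 1 m6A RIP library per condition, MA and NC. The input levels are the authors' deposited FPKM values, 1 column per condition. Each peak list, per the file headers, gives the authors' p-value and false discovery rate per peak, the fold enrichment of RIP over input (a ratio, used only within its own list) and the exonic width, another length measure that the authors deposited in bp. Reads were processed with tools that include ChIPseeker, deepTools, HISAT, HISAT2 and Trimmomatic on GRCh38.p13, per the submitters' processing notes. For the peak caller, read counter and use of strand, a name or setting was not given in the sources used here.

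Whole reads and library totals were recovered from the FPKM pairs. In 99.99% of the 13055 genes with both inputs above 0, the pair resolved to the smallest reads that fit (relative tolerance 1e-10 beyond rounding), against 0.0689% once the values were moved. The recovery was tested on simulated data of 13505 genes. Of these, 84.0% got their true reads and length, and 99.99% got these or a whole fraction of them. A whole fraction leaves the log2 ratio unchanged but gives too few reads and too short a length. Differences are log2((MA + 1)/(NC + 1)) for genes that reach 1 FPKM in either input, counted at 2-fold. Repeated peak rows were counted once (99 in MA, 132 in NC), starts were raised by 1, and peaks were merged to regions per list and strand. Overlap was taken over whole spans, introns included. Python 3.11.15, numpy 2.4.6, pandas 2.3.3 and scipy 1.17.1 were used.

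The members and gene lists were chosen with earlier results of these data known. Every RAB gene could be named. From each other list the 4 largest absolute differences at 5 FPKM or more in either input were named, and of the peaks the 5 highest per list, ties included, with members holding a peak in 1 list only at 5 FPKM or more in both inputs. Of the list symbols, 3 were matched through another symbol. Other pseudocounts, filters, scalings, peak thresholds and overlaps were tried.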

Additional observations from a re-analysis of the deposited data

How the results depend on the processing

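Shifting all differences so that the median of all genes, 0.11, became 0 left 2 RAB genes higher, with 0 in the Golgi group, 5 exchange factors lower, 1 TBC protein higher and 1 sorting complex gene higher. As TPM, 9 RAB genes were higher, 6 of them in the Golgi group and 2 in the early endosome group, with 8 TBC proteins higher. With a pseudocount of 0.1, 7 RAB genes were higher (4 Golgi, 2 early endosome), 1 recycling gene was lower, and 8 TBC proteins and 2 related GTPases were higher. With a pseudocount of 5, 1 RAB gene was higher (0 Golgi, 0 recycling), 1 exchange factor was higher, and the prenylation and sorting complex lists had 0 in either direction, the TBC proteins and effectors 0 higher. With a filter of 5 FPKM, 2 RAB genes were higher (1 Golgi, 0 recycling). None of these counts was set beside the share of all genes at the same setting.

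At a fold enrichment of 3 or more, 25 MA peaks in 21 RAB genes and 34 NC peaks in 28 genes were left, with 52.9% of NC regions shared, 82.4% of NC peaks in the 3' UTR and 5.88% in the 5' UTR. Peaks within a single exon numbered 26 in 20 genes in MA and 45 in NC. Of these, 73.1% of MA and 42.2% of NC regions were shared, 80.8% of MA and 77.8% of NC peaks lay in the 3' UTR, and 7.69% of MA peaks lay in other exons and 0% in the 5' UTR. With an overlap of 50% of both regions, 52.7% of MA and 41.4% of NC regions were shared. The shares of overlapping regions at these settings were not set beside those of all regions. At a false discovery rate of 0.001 or less, and with the NC list reduced to as many peaks as the MA list, the counts of RAB peaks and genes stayed within 1.5 times. The causes were not tested, beyond the smaller numbers that stricter filters leave by construction. No RAB gene past 2-fold changed direction. Gaps without a pseudocount were added after the data were seen. Overlap by exon blocks was not run, because the blocks are not used here. No paired analysis was possible because each group had 1 library, which also left no replicate to leave out. Depth limits genes with few reads, among them RAB39A, with 103 reads in MA and 30 in NC.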
